A study of Rattus norvegicus with 10 samples.

Results

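Metabotropic glutamate receptors were measured as 6 genes, Grm2, Grm3, Grm4, Grm5, Grm7 and Grm8, taken by symbol from a table of 16041 genes of rat prefrontal cortex. Each symbol matched 1 row. RNA-seq had been made from male Sprague-Dawley rats, 5 controls and 5 that went through early life stress (ELS), with 1 library per tissue sample. ELS was limited nesting, a rearing condition with little nest material, from postnatal day 2 to 9. Tissue of both groups was collected at postnatal day 91, and the comparison asks which of these receptor transcripts differed in adulthood. No allele or drug is named for either group. The labels do not say which litters the rats came from, and the tests treat each sample as independent. If rats of a group shared a litter, the p-values could be too small. They rest on the spread among these samples alone, which may be partly technical.

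Metabotropic glutamate receptors are G protein-coupled receptors that respond to glutamate with slow signals, unlike the ion channels of the AMPA, NMDA and kainate classes. Group I receptors, to which the product of Grm5 belongs, couple through Gq to phospholipase C and calcium release and lie mostly around the postsynaptic density, held there by Homer proteins. Group II (Grm2, Grm3) and group III (Grm4, Grm7, Grm8) couple through Gi/o, lower cyclic AMP and curb transmitter release. In cortex, Grm3 is also an astrocyte gene, and Grm7 sits in the presynaptic active zone.

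Levels are RPKM, reads scaled to both gene length and library total, so genes can be compared with each other. They are given as mean ± SD, n = 5 in each group. Each log2 fold change sets ELS over control after 0.1 was added to the RPKM, a step that shrinks the changes of low genes, and comes from limma fitted over 14642 genes, two-sided, with Benjamini-Hochberg adjustment over all of them. Library totals were 18838898 to 22311136 reads, and the members held 82 to 1971 reads in a library. Excitatory neuron markers (10 of 10 in the table, none at 0) summed to 1911 to 2162 RPKM in controls and 2081 to 2408 in ELS. The sum was led by Camk2a and Nrgn, with control means of 783.9 and 718.5 RPKM. It does not show that each marker was present in each library. Here and below, none at 0 means that no marker was at 0 in all 10 libraries at once. Control replicate 4 stood apart, with summed oligodendrocyte markers of 2309 RPKM against 1125 to 1441 in the other controls. ELS replicate 2 lay at the control level for several genes that were low in the other ELS libraries. Log2 fold changes of receptor genes that move by over 1.5 times without one of these libraries are given with and without it. Summed markers of other cell types in controls and ELS were 57.3 to 78.9 and 46.8 to 57.2 RPKM for oligodendrocyte precursors, 100.5 to 119.6 and 88.2 to 105.9 for microglia, 23.0 to 33.6 and 26.4 to 32.7 for endothelium (4 of 6 in the table), 6.36 to 44.3 and 8.45 to 13.9 for olfactory bulb and neuroblasts, and 411.5 to 981.0 and 213.8 to 438.0 for blood (3 of 4 in the table). Their part in the receptor values was not tested. In tissue, fewer cells of a type and less RNA per cell cannot be told apart.

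Of the 6 members, 0 passed an adjusted p of 0.05, against 0% of all genes tested. At an unadjusted p under 0.05 there were 2 members, Grm5 with the lower mean in ELS and Grm7 with the higher one, where 20.4% of all genes reached this level (10.3% lower and 10.1% higher). With 6 members and this background, the count of 2 is not read as a result about the family. In 0 of 6 members were the groups free of overlap, a state that held for 5.68% of genes. Over all genes the log2 fold changes had a median standard error of 0.0976, and those of the members ranged from 0.08 for Grm7 to 0.37 for Grm8. The standard error was thus above this median in 5 of the 6. These errors reflect the spread among samples and not the quality of the measurement alone.

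RefSeq promoter windows were at hand for Grm5, Grm7 and Grm8. The 250 bases before the annotated start of Grm5 and Grm7, the members of lowest p, are shown for their contrast in base composition, on build GRCr8 and the plus strand, at chr1:150733503-150733752 and chr4:145286476-145286725, with CG dinucleotides in capitals.
Grm5: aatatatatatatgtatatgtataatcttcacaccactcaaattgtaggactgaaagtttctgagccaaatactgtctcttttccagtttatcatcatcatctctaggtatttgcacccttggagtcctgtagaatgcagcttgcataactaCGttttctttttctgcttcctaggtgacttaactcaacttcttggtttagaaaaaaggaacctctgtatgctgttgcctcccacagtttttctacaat
Grm7: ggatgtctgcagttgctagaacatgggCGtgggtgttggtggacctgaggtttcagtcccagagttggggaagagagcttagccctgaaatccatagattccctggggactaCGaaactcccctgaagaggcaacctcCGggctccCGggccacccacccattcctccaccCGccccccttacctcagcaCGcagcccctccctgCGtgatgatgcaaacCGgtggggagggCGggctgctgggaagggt
The Grm5 window had 1 CG dinucleotide and 36.4% G or C, and 92.2% of 33469 rat windows of this length held at least as many CG. The Grm7 window had 9 CG dinucleotides and 62.0% G or C, a CG count reached by 38.5% of windows. The window of Grm8 on the minus strand held 5, the median of all windows. The letters AGAACA, a half-site of the glucocorticoid receptor element, searched on both strands, were found once each in the Grm7 and Grm8 windows, 0 times in the Grm5 window, and in 17.5% of all windows. The GC box GGGCGG, on both strands, was found 2 times in the Grm7 window, 0 times in the other windows, and in 30.5% of all windows. These matches describe letters only, and nothing about binding was measured.

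In controls Grm5 had the highest mean level, 20.4 RPKM, followed by Grm2 at 14.8, Grm7 at 11.5, Grm3 at 10.8, Grm4 at 4.92 and Grm8 at 3.49. Only between Grm3 and Grm4 did the ranges of neighbours in this order not overlap. In ELS the order of means was Grm2 at 16.2 RPKM, Grm7 at 13.4, Grm5 at 12.2, Grm3 at 8.33, Grm4 at 5.24 and Grm8 at 4.81, again with a gap only between Grm3 and Grm4. Grm5 was thus first by mean in controls and behind Grm2 and Grm7 in ELS, a difference in order that was not tested. It was the first or second of the 6 in every control library, and in ELS replicate 3 it was the fourth.

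Grm5 (ENSRNOG00000016429; gene model of 3121 bases), the group I receptor of this set, had the lowest log2 fold change of the 6. Control replicates 1 to 5 were at 22.8, 19.9, 15.8, 22.0 and 21.3 RPKM. ELS replicates 1 to 5 were at 13.0, 22.0, 5.95, 9.63 and 10.5 RPKM. Thus 4 of 5 ELS libraries lay under every control, while ELS replicate 2 lay inside the control range. The means were 20.4 ± 2.74 in controls and 12.2 ± 6.04 RPKM in ELS, with a log2 fold change of -0.85 ± 0.28 (SE; limma, p = 0.0127, adjusted p = 0.161; exact permutation test of the log2 values, two-sided, p = 0.0397). Of the genes tested, 298 had a log2 fold change as low or lower. Without ELS replicate 2 the ELS mean was 9.79 ± 2.93 RPKM (n = 4), the log2 fold change was -1.09 ± 0.20 and the adjusted p in limma was 0.0293, a setting in which 3.03% of all genes passed (2.1% in the lower direction). Without ELS replicate 2 and control replicate 4 together the log2 fold change was -1.06 ± 0.22, with a limma adjusted p of 0.0286, where 7.62% of genes passed (4.12% lower). With all libraries and sample quality weights in limma-voom it was -0.915, with an adjusted p of 0.0679. ELS replicate 2 was singled out for lying at the control level in genes such as Grm5. The calls without that library are thus not independent of this choice. The summed oligodendrocyte markers (8 of 8 in the table, none at 0) were at 1105 RPKM in ELS replicate 2, the highest of the ELS libraries, against 846.7 to 1044 in the others, and excitatory markers at 2081 RPKM were the lowest of the ELS libraries. Their part in the Grm5 values was not tested. The spread of Grm5 in ELS came to 49.4% of the mean, against 13.5% in controls.

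**Figure D1:**
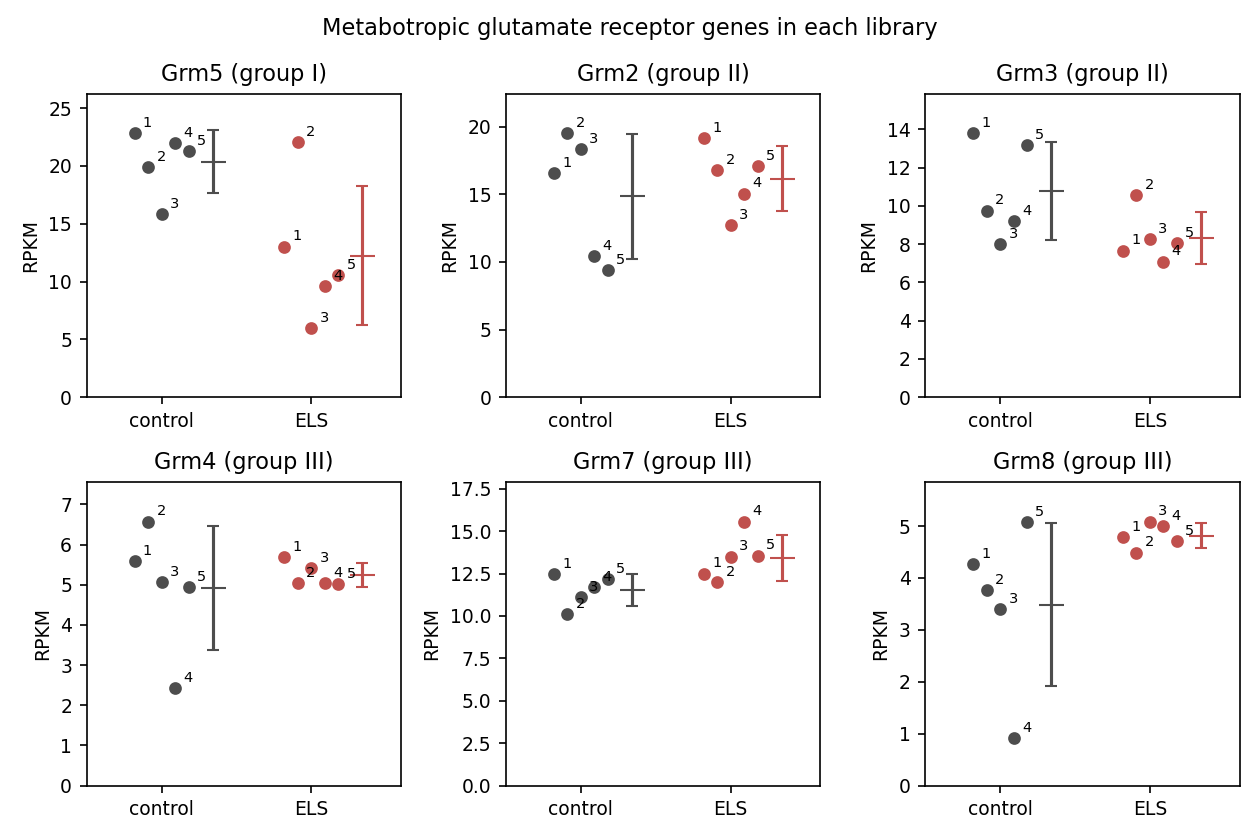
RPKM of the 6 receptor genes in each library, control in grey and ELS in red, with the replicate number beside each point and mean ± SD (n = 5) to the right. ELS replicates 1, 3, 4 and 5 lie under every control for Grm5, and control replicate 4 lies lowest for Grm4 and Grm8.

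Grm3 (ENSRNOG00000005519), a group II receptor of neurons and astrocytes, was at 13.8, 9.75, 8.01, 9.20 and 13.2 RPKM in control replicates 1 to 5. ELS replicates 1 to 5 were at 7.66, 10.6, 8.26, 7.08 and 8.04 RPKM. The groups overlapped, with 2 ELS libraries under every control. Means were 10.8 ± 2.56 and 8.33 ± 1.34 RPKM, and the log2 fold change was -0.35 ± 0.16 (SE; limma adjusted p = 0.251; exact permutation p = 0.103). As with Grm5, ELS replicate 2 was the highest of the ELS libraries. Without it the log2 fold change was -0.44, with a limma adjusted p of 0.141. Astrocyte markers (10 of 10 in the table, none at 0) summed to 1279 to 1521 RPKM in controls and 1114 to 1250 in ELS, and 10 of 10 had lower ELS means, with a median log2 fold change of -0.19. Unlike Grm3, this sum was 1158 RPKM in ELS replicate 2, the second lowest of the 10 libraries. The part of astrocytes in the Grm3 values was not tested.

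Grm2 (ENSRNOG00000013171), the other group II receptor and a presynaptic autoreceptor, had the largest SD of the 6 among the controls, 4.65 RPKM. They were at 16.5, 19.5, 18.3, 10.4 and 9.38 RPKM in replicates 1 to 5, so that replicates 4 and 5 lay under every ELS library. ELS replicates 1 to 5 were at 19.2, 16.8, 12.7, 15.0 and 17.1 RPKM. The log2 fold change was 0.17 ± 0.21 (SE; limma adjusted p = 0.677; exact permutation p = 0.484), and it was 0.06 when control replicate 4 was left out, 0.02 when it was replicate 5 and 0.28 when it was replicate 2. The sum of both group II genes was 25.6 ± 4.52 RPKM in controls and 24.5 ± 2.82 in ELS.

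Grm7 (ENSRNOG00000005662), the receptor of the active zone, had the smallest spread of the 6 in controls, 0.941 RPKM. Control replicates 1 to 5 were at 12.47, 10.1, 11.1, 11.7 and 12.2 RPKM. ELS replicates 1 to 5 were at 12.49, 11.98, 13.5, 15.6 and 13.5 RPKM. The 5 ELS libraries were above the control median and 4 of them above every control, the exception being ELS replicate 2. Means were 11.5 ± 0.941 and 13.4 ± 1.37 RPKM, a log2 fold change of 0.22 ± 0.08 (SE; limma, p = 0.0205, adjusted p = 0.178; exact permutation p = 0.0317). Without ELS replicate 2 the log2 fold change was 0.26, with a limma adjusted p of 0.106. It was 0.16 without ELS replicate 4 and 0.17 without control replicate 2, with limma adjusted p of 0.342 and 0.286. Excitatory neuron markers, whose summed level is given above, had higher ELS means in 8 of 10 genes, with a median log2 fold change of 0.21. Their part in the Grm7 values was not tested.

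Grm8 (ENSRNOG00000021468), a group III receptor found at inputs to interneurons, was at 4.27, 3.77, 3.39, 0.917 and 5.08 RPKM in control replicates 1 to 5. ELS replicates 1 to 5 were at 4.78, 4.49, 5.09, 5.00 and 4.71 RPKM. Control replicate 4, with 82 reads, was far under the others, and control replicate 5 lay beside the highest ELS libraries. The log2 fold change was 0.64 ± 0.37 (SE; limma adjusted p = 0.354; exact permutation p = 0.0556). Without control replicate 4 it was 0.23 ± 0.11, with a limma adjusted p of 0.239 and means of 4.13 ± 0.730 (n = 4) and 4.81 ± 0.238 RPKM. The size of the Grm8 difference thus rested on that library.

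Grm4 (ENSRNOG00000000487), a group III receptor best known from cerebellum and the striatal pathway, showed the same low library. Control replicates 1 to 5 were at 5.59, 6.57, 5.07, 2.43 and 4.93 RPKM. ELS replicates 1 to 5 were at 5.68, 5.04, 5.42, 5.03 and 5.01 RPKM, all inside the control range. The log2 fold change was 0.16 ± 0.22 (SE; limma adjusted p = 0.714; exact permutation p = 0.746), and without control replicate 4 it was -0.07 ± 0.09. In control replicate 4 the summed interneuron markers (8 of 8 in the table, none at 0) were at 199.9 RPKM, against 306.2 to 379.2 in the other controls and 350.4 to 394.7 in ELS. Striatal projection neuron markers (8 of 8, none at 0) summed to 49.1 RPKM there, against 95.5 to 201.2 in the other controls and 97.8 to 110.1 in ELS. Sst, the highest interneuron marker, was at 61.8 RPKM there, and Penk, a striatal marker, at 9.01. The part of either cell type in the Grm4 and Grm8 values was not tested.

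**Figure D2:**
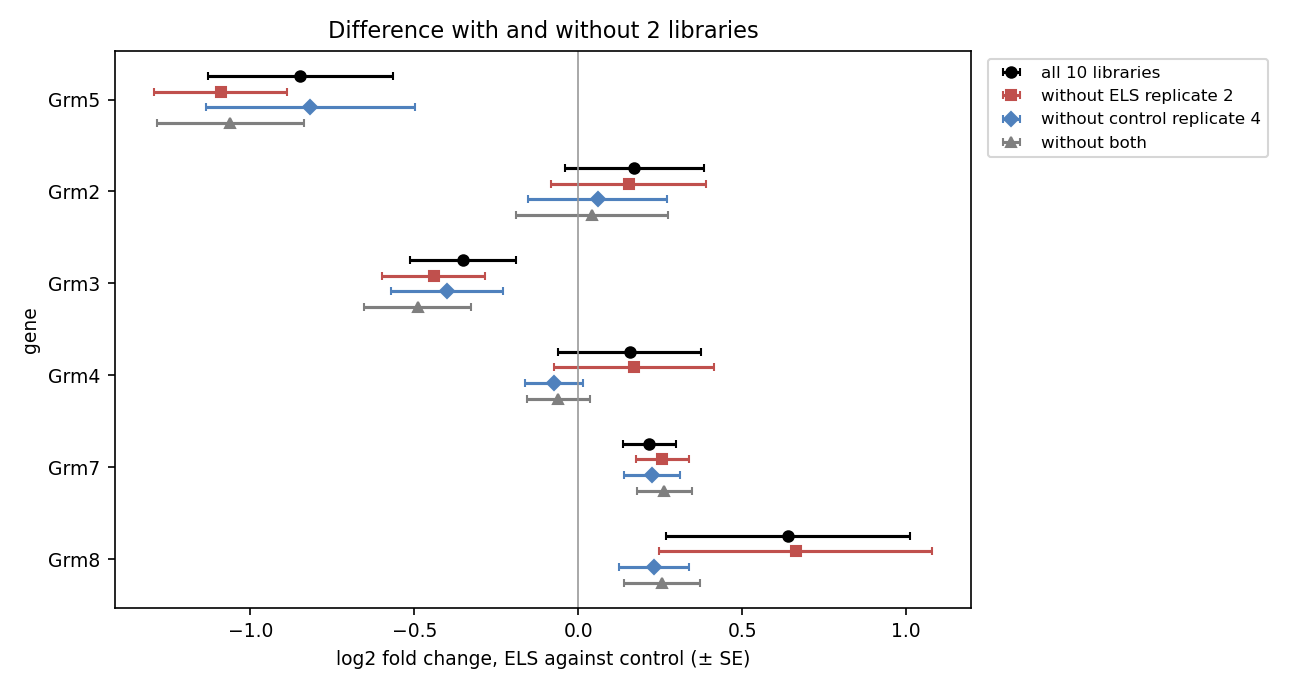
Log2 fold change of each receptor gene, ELS against control, with its standard error from limma, over all 10 libraries and without ELS replicate 2, control replicate 4 or both. Grm5 lies lowest under every setting drawn, and Grm8 and Grm4 shift toward or past 0 without control replicate 4.

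As a description of the family's makeup, each gene was expressed as a share of the summed RPKM of the 6. Grm5 made up 31.1% ± 4.93 of this sum in controls and 19.6% ± 7.19 in ELS, at 11.7% in ELS replicate 3 and 31.1% in ELS replicate 2, the latter inside the control range. Grm7 made up 17.6% ± 2.29 and 22.7% ± 4.35, Grm2 22.4% ± 6.49 and 26.9% ± 2.82, and Grm3 16.3% ± 2.90 and 13.9% ± 1.72. The summed level of the 3 group III genes was 19.9 ± 2.96 RPKM in controls and 23.5 ± 1.49 in ELS, at 15.1 in control replicate 4. The sum of all 6 was 65.9 ± 7.23 and 60.2 ± 7.37 RPKM. Grm5 took a smaller share in ELS replicates 1, 3, 4 and 5 than in any control, a difference in makeup that was not tested.

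**Figure D3:**
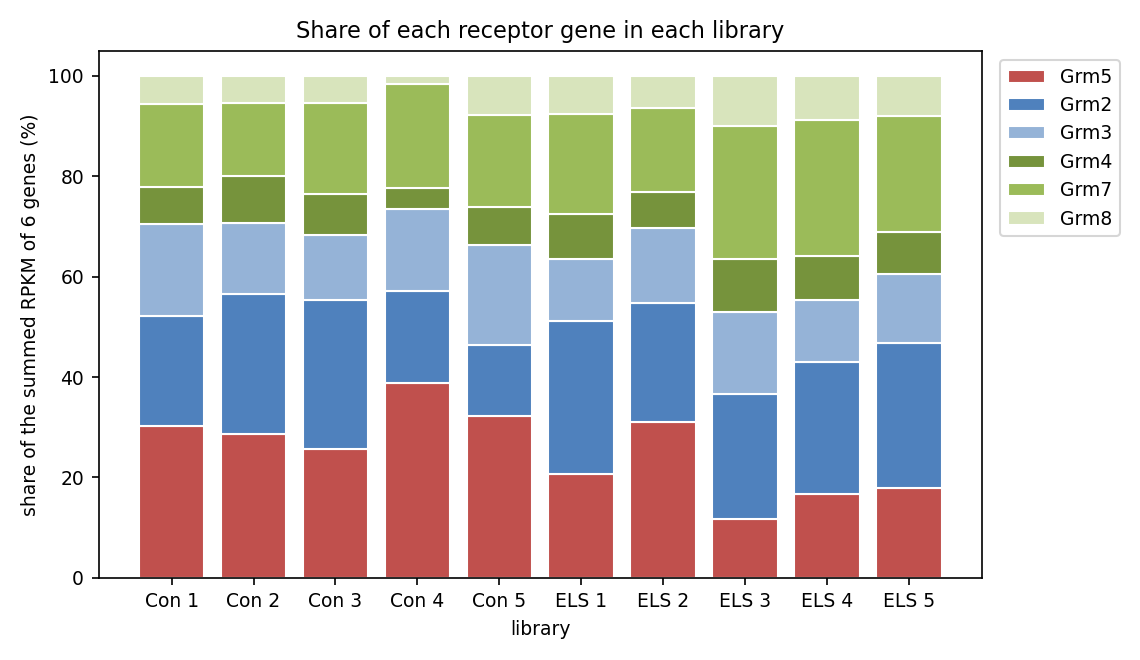
Share of each receptor gene in the summed RPKM of the 6 genes, in percent, for each library. Grm5 takes 25.6% to 38.8% in the controls and in ELS replicate 2 (31.1%), and 11.7% to 20.7% in the other ELS libraries.

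The partners of the receptors were followed in 6 lists. None of their genes passed an adjusted p of 0.05 in limma with all libraries, so the members named are those of lowest p. Beside each list's count with all libraries stands the share of all genes at the same unadjusted p, 10.1% higher and 10.3% lower. Oligodendrocyte markers had lower ELS means in 8 of 8 genes, and with their score as a covariate these shares were 5.04% and 6.73%. The score follows the groups, and its part in the partner values was not tested. Of 19 tested genes of the Gq pathway of group I, 1 was higher and 4 were lower at an unadjusted p under 0.05, with a median log2 fold change of -0.08 against 0.00371 over all genes. That is 5.26% higher and 21.1% lower. Without control replicate 4 the counts were 2 and 3 (10.5% and 15.8%, against 11.1% and 10.6% of all genes), with a median of -0.03. Without both doubted libraries the counts were 3 and 6 (15.8% and 31.6%, against 13.9% and 12% of all genes). The median was then 0.02, against 0.0146 over all genes. The lower ones act downstream of phospholipase C. Itpr2, a calcium release channel, was at 1.59 ± 0.163 RPKM in controls, against 0.801 ± 0.372 in ELS, Prkca, a protein kinase C, at 23.8 ± 5.36 and 13.2 ± 4.71, and Dgki, a diacylglycerol kinase, at 9.77 ± 1.64 and 5.97 ± 1.80. ELS replicate 2 was the highest ELS library in each of these, at 1.39 RPKM for Itpr2, 19.3 for Prkca and 8.91 for Dgki, as it was for Grm5. Dgkb, another diacylglycerol kinase, had a log2 fold change of -0.16 ± 0.06 (limma adjusted p = 0.192). The G protein genes Gnaq and Gna11, both named after their values were seen, had log2 fold changes of 0.01 and 0.01.

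Of 13 genes of the Homer and Shank scaffold, 4 were higher and 1 was lower at an unadjusted p under 0.05 (median 0.08), which is 30.8% and 7.69%. Without control replicate 4 the counts were 1 and 1 (7.69% each, against 11.1% and 10.6% of all genes). Homer2, which links group I receptors to inositol trisphosphate receptors, averaged 6.16 ± 0.765 RPKM among controls against 4.14 ± 0.923 after ELS. Its log2 fold change was -0.58 ± 0.15 (SE), with a limma adjusted p of 0.133 and with ELS replicate 2 the highest of its group at 5.38. Shank1, a scaffold of the postsynaptic density, was at 96.3 ± 8.23 and 111.4 ± 6.26 RPKM, Grasp, which binds group I receptor tails, at 16.3 ± 1.19 and 17.96 ± 0.879, and Dlgap4 at 49.1 ± 3.75 and 54.4 ± 3.04. The fourth higher gene, Dlgap1, had a log2 fold change of 0.13 ± 0.05. Homer1, the most studied partner of Grm5, had a log2 fold change of 0.41 ± 0.19 (unadjusted p = 0.0592 in limma) and is, like Dlgap1, named after its values were seen.

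Of 24 genes of the Gi/o side, which serves groups II and III, 10 were higher and 2 were lower at an unadjusted p under 0.05, with a median of 0.15, which is 41.7% and 8.33%. Without control replicate 4 the counts were 11 and 3 (45.8% and 12.5%, against 11.1% and 10.6% of all genes), with a median of 0.09. With the oligodendrocyte covariate they were 4 and 2 (16.7% and 8.33%, against 5.04% and 6.73% of all genes), with a median of -0.03. Kcnj9, a subunit of G protein-gated potassium channels, was at 29.6 ± 3.04 RPKM in controls, against 36.1 ± 1.75 in ELS, Gnb1, a G protein beta subunit, at 152.6 ± 11.1 and 178.4 ± 8.97, and Cacna1a, the P/Q-type calcium channel that presynaptic receptors inhibit, at 24.1 ± 1.06 and 28.1 ± 2.02. Gnai3, an inhibitory alpha subunit, was at 10.6 ± 0.473 and 9.35 ± 0.235 RPKM. The other lower gene, the gamma subunit Gng7, named after its values were seen, had a log2 fold change of -0.56 ± 0.21, with 33.7 ± 12.4 and 21.7 ± 1.44 RPKM. Kcnj9, Gnb1, Cacna1a and Gnai3 each had a limma adjusted p of 0.133, and in control replicate 4 Kcnj9 and Gnb1 were at their lowest, 25.6 and 133.1 RPKM. With the covariate the log2 fold change of Gnb1 was 0.07 in place of 0.23, and that of Kcnj9 0.16 in place of 0.29.

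In the list of desensitisation and trafficking, 4 of 18 genes were higher and 2 lower at an unadjusted p under 0.05 (median 0.06), which is 22.2% and 11.1%. With the covariate both counts were 0 in limma, against the 5.04% and 6.73% of all genes. Calmodulin gene Calm3, whose product binds the tails of Grm5 and Grm7 proteins, was at 1030 ± 92.5 and 1188 ± 34.1 RPKM, and the receptor kinase gene Grk2 at 66.3 ± 5.65 and 75.8 ± 2.72. Rgs2, which limits Gq signals, was at 22.4 ± 4.53 and 27.9 ± 0.940 RPKM, with a log2 fold change of 0.34 that was 0.22 without control replicate 4, and the kinase gene Grk4 at 2.23 ± 0.347 and 1.74 ± 0.188. Of the remaining genes, named after their values were seen, Pick1, whose product binds Grm7, had a log2 fold change of 0.11 ± 0.05 and Rgs14 one of -0.37 ± 0.14. Of 5 genes for synaptic adhesion partners and for NAAG, a peptide that activates Grm3, 1 was lower. Folh1, the enzyme that breaks down NAAG, averaged 5.82 ± 0.840 RPKM among controls against 4.398 ± 0.240 after ELS. Its log2 fold change was -0.39 ± 0.10 (SE), with a limma adjusted p of 0.133. The 5 ELS libraries, at 4.04 to 4.69 RPKM, lay under the 5 controls, at 5.01 to 7.09, where the highest was control replicate 4. Among the partners named by p, Itpr2, Homer2, Gnb1, Gnai3, Cacna1a and Cyfip2 were also free of overlap. Genes picked for low p are prone to this, so the 5.68% of all genes is set beside whole lists. There, 2 of 19 genes of group I coupling, 1 of 13 of the scaffold and 5 of 24 of the Gi/o side were free of overlap. So were 0 of 18 in desensitisation and trafficking, 1 of 5 in the NAAG list and 1 of 13 effectors. With the covariate the log2 fold change of Folh1 was -0.15. Elfn1 and Elfn2, adhesion proteins that recruit group III receptors across the synapse, had log2 fold changes of 0.12 ± 0.10 and 0.09 ± 0.10, and Rimklb, a NAAG synthase, one of -0.05 ± 0.09. Leaving out 1 control moved Elfn1 to 0.06 (replicate 3) or 0.19 (replicate 5), and Elfn2 to 0.05 (replicate 1) or 0.19 (replicate 4). Rimklb was at -0.01 without ELS replicate 2 and ran from -0.09 without control replicate 4 to 0.000933 without ELS replicate 5.

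Of 13 synaptic effectors of group I signalling, 1 was higher and 1 lower (7.69% each), with a median of 0.01. Without control replicate 4 the counts were 2 and 1 (15.4% and 7.69%, against 11.1% and 10.6% of all genes), with a median of 0.05. Cyfip2, a partner of the fragile X protein, was at 223.0 ± 30.9 RPKM in controls, with 169.6 in control replicate 4, and at 286.2 ± 18.1 in ELS. Map1b, a microtubule protein made upon Grm5 activation, was at 131.6 ± 11.8 and 107.4 ± 17.4 RPKM, with 137.2 in ELS replicate 2. The kinase gene Mapk3 had a log2 fold change of -0.13 ± 0.06. Without ELS replicate 2, Itpr2, Dgki, Homer2, Map1b and Kcnj9 passed in limma beside Grm5, with adjusted p of 0.0197, 0.0224, 0.0345, 0.0293 and 0.0467, where 3.03% of all genes passed. ELS replicate 2 was singled out for lying at the control level in genes such as these, so these calls are not independent of that choice. Without both doubted libraries, where 7.62% of genes passed, these 5 passed again, as did Cyfip2 (0.00929), Gnb1 (0.0236), Calm3 (0.0274), Cacna1a (0.0299), Elfn2 (0.0369), Folh1 (0.0394) and Shank1 (0.0433). Control replicate 4 was the lowest control for Cyfip2, Gnb1, Calm3 and Shank1 and the highest for Cacna1a, Elfn2 and Folh1. These calls are thus not independent of leaving it out. The partners were named for low p, so the 7.62% is set beside whole lists. There, 2 of 19 genes of group I coupling, 2 of 13 of the scaffold and 5 of 24 of the Gi/o side passed. So did 1 of 18 in desensitisation and trafficking, 2 of 5 in the NAAG list and 3 of 13 effectors.

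**Figure D4:**
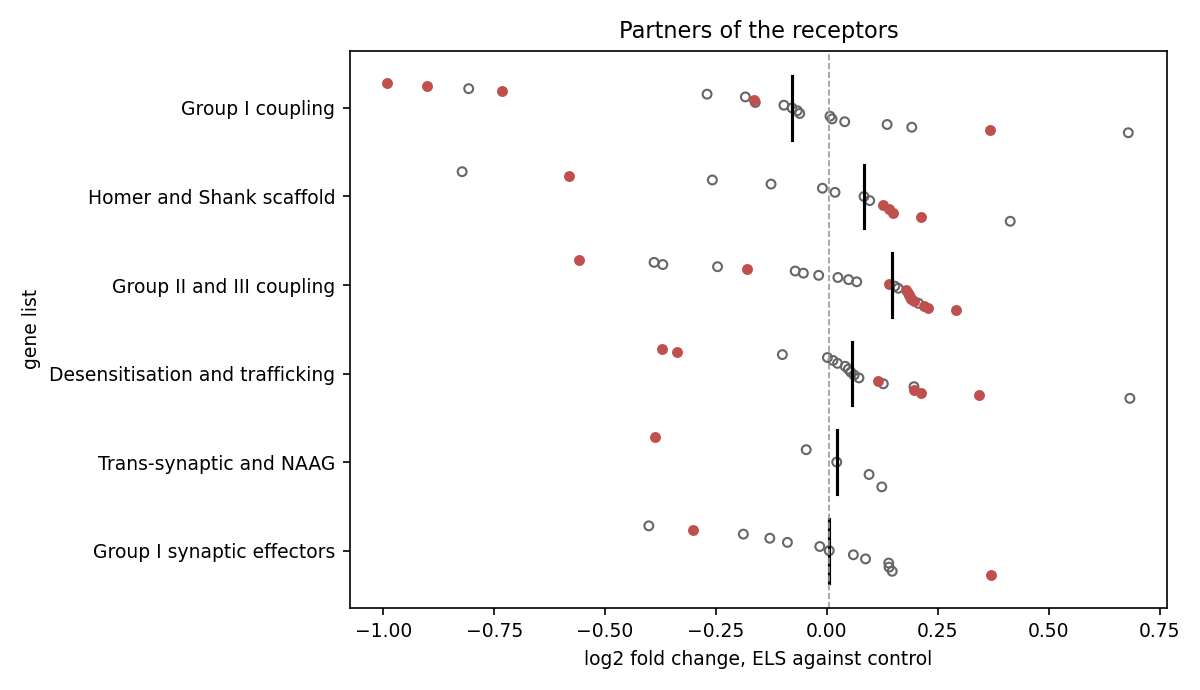
Log2 fold change, ELS against control, of each tested partner gene in 6 lists. Filled points have an unadjusted p under 0.05 in limma, black bars are list medians and the dashed line is the median of all genes (0.00371), and the medians run from -0.08 for group I coupling to 0.15 for group II and III coupling.

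For each receptor gene the 3 nearest of 14245 genes were taken by the root-mean-square difference of log2 levels over the 10 libraries, after each gene was centred on its own mean. Likeness to the receptor in these libraries thus follows from how the genes were chosen. Nearest to Grm5 were Tead1 (0.112), Stox2 (0.12) and Thoc2 (0.130), where the profile of Grm5 itself had a root-mean-square size of 0.619. Thoc2 ranged over 3.87 to 4.72 RPKM among controls and over 1.59 to 2.76 in ELS replicates 1, 3, 4 and 5, while ELS replicate 2 had 4.68. Nearest to Grm8, whose own size was 0.675, were Plcb4 (0.0829), Stac2 (0.0869) and Dpp10 (0.105). Plcb4, a phospholipase C of the Gq pathway and also in the list of group I coupling, was at 2.53 RPKM in control replicate 4 and at 11.5 to 14.9 in ELS. Nearest to Grm4 (own size 0.353) were Nkd2 (0.0723), Lgi2 (0.0771) and Negr1 (0.0844), also lowest in control replicate 4. Nearest to Grm7 (0.160) were Mtpn (0.0466), Pja2 (0.0634) and the synaptic vesicle gene Syn2 (0.0638). For Grm2 (0.348) they were Usp2 (0.154), RGD1560010 (0.157) and Csf2ra (0.167), and for Grm3 (0.308) Zfp458 (0.123), Ttc14 (0.142) and Metap1d (0.144). The fit was closest in proportion to size for Grm8, Grm5 and Grm4, in which 1 or a few libraries stood far from the rest.

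**Figure D5:**
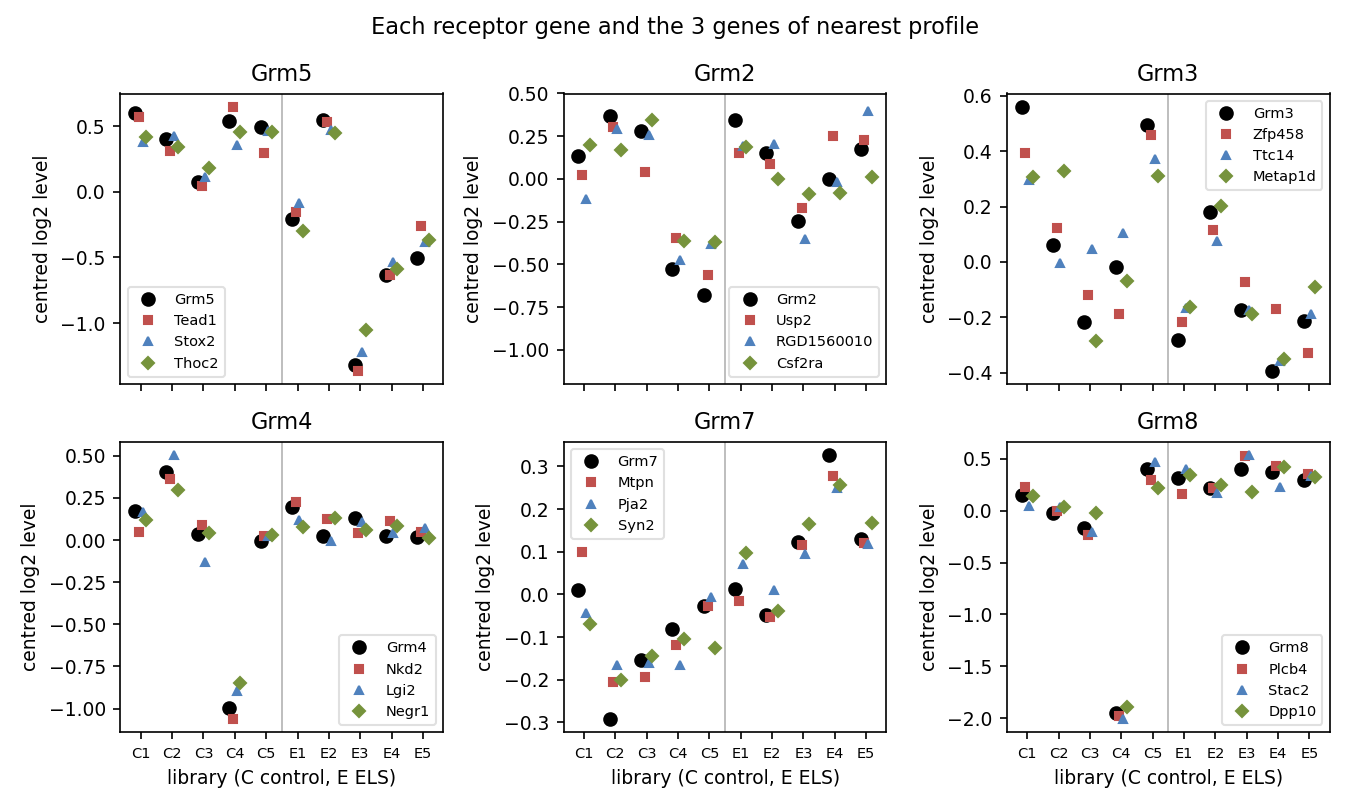
Log2 level of each receptor gene (black) and its 3 nearest genes in the 10 libraries (C control, E ELS), each centred on its own mean. ELS replicates 1, 3, 4 and 5 are low in the Grm5 panel, and control replicate 4 is low in the Grm4 and Grm8 panels.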

How the data were processed

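RNA-seq of 10 prefrontal cortex samples was used. Per the labels' protocols, RNA was column-purified, DNase was used, and a strand-marking mRNA kit with poly(A) selection followed. Alignment and counting tools listed in the submitters' processing notes are STAR and featureCounts, with build rn6. No source used here gives the strand setting or annotation release, so reads of overlapping antisense genes or of related receptor genes could be shared. The authors deposited RPKM-type values for 16041 genes. Within each gene they were whole multiples of a step, from which reads, gene lengths and library totals were worked out for 16015 genes (100% of those above 0, tolerance 0.002 reads). There were 0 columns of other samples, and 2 further receptor rows of this family were not analysed here.

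Values were tested as log2(RPKM + 0.1) after removing 1399 genes that reached 0.5 RPKM in fewer than 5 libraries, with limma 3.58.1 in R 4.3.3, with trend and robust moderation, and the 6 members by exact permutation over 252 assignments, whose smallest p is 0.00794. The procedure was tested on simulated data. Members, lists and alternatives were chosen with earlier results of these data known. Genes were named by rule: the 6 members, the 4 partners of lowest p per list (or any that passed), and the 3 nearest profiles per member; the rule also names the 2 highest markers per cell type list, of which those bearing on a member are printed, with summed levels for the lists. Some partner genes are not reported here. List counts without the doubted libraries and with the covariate were added after the data were seen. Promoters are from RefSeq, build GRCr8, matched by symbol (3 of 6).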

Additional observations from a re-analysis of the deposited data

Results flagged for a closer look

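A library stood apart from its group in 4 of 60 groups of 5 libraries, over the receptor genes and their named partners, by a gap to the nearest library over 0.71 of the group's range. Chance sets apart about 1 in 20 groups, and none of the 4 was a receptor gene. Gnb1 was at 133.1 RPKM in control replicate 4, under 154.3 in the next control. Cyfip2 was at 169.6 RPKM in control replicate 4, under 223.7 in the next control. Map1b was at 137.2 RPKM in ELS replicate 2, above 103.6 in the next ELS library. Grk2 was at 71.0 RPKM in ELS replicate 2, under 76.0 in the next ELS library.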

How the results depend on the processing

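Each receptor gene was recomputed under 22 alternatives. Grm3, Grm5 and Grm7 kept their direction in all of them, and Grm3 and Grm7 stayed past no threshold (adjusted p from 0.0927 and 0.088 upward). With the oligodendrocyte score as a covariate Grm7 was at 0.140, with a limma adjusted p of 0.64. Grm5 passed without ELS replicate 2 and without both doubted libraries (-1.06), calls that are not independent of how ELS replicate 2 was singled out. In limma-voom with sample quality weights Grm5 was at -0.915 (adjusted p = 0.0679) and did not pass. The weight of ELS replicate 2 was 0.89, near the 0.869 of control replicate 3, while that of control replicate 4 was 0.169. Leaving out 1 library each gave -1.09 to -0.62 for Grm5. Its highest adjusted p in limma was 0.504, with the oligodendrocyte score as a covariate. Grm4 reversed to -0.0778 in limma-voom with sample quality weights, to -0.0603 without both libraries and to -0.449 with that covariate, and ran from -0.0736 to 0.277 when 1 library was left out. The covariate also reversed Grm2 (-0.142), Grm8 (-0.480) and Rgs2 (-0.0384); it follows the groups, and the cause was not tested. Rimklb ran from -0.0907 to 0.000933 when 1 library was left out. Genes passing over the whole table numbered 858 with quality weights, 1116 without both libraries and 0 to 444 when 1 library was left out, 444 without ELS replicate 2 and 1 without ELS replicate 5, against 0 in limma with all libraries (2988 at an unadjusted p under 0.05) and 0 in limma-voom on the recovered reads without weights (3002 at an unadjusted p under 0.05). Shares of the family by reads in place of RPKM were 32.3% for Grm2 and 14.5% for Grm7, against 24.7% and 20.2%, since gene length then counts. Same-numbered libraries did not deviate together (correlations of -0.0817 to 0.0658), and with the replicate block 0 genes passed, with Grm5 at -0.848 (adjusted p = 0.222). The lowest read count of a member, 82 for Grm8, was in control replicate 4, the library with the most reads (22311136).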
